A study of Drosophila melanogaster with 4 samples.

Results

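Arm 3R is the right arm of the third chromosome of Drosophila melanogaster and the longest assembled arm of release 5, at 27905053 bp. Its H3K9acS10P clusters were taken from the list called on both chromatin immunoprecipitation (ChIP-seq) replicates together, as every region that the authors typed as enriched and placed on 3R, whatever its score. There were 2047 of them among 9877 clusters in all (20.7%). The chromatin came from nuclei of wild-type Oregon-R larvae (Oregon-R-modENCODE) at the third instar, with no treatment and no genetic change. The samples were 2 H3K9acS10P ChIP samples, labelled as a new lot of the antibody, and 2 input samples, whose values were not used here. The antibody target is histone H3 with an acetylated lysine beside a phosphorylated serine. Each ChIP replicate also has its own cluster list, with 1402 clusters on 3R in replicate 1 and 1638 in replicate 2. Whether the replicates are separate collections of larvae is not stated in the labels, so a spread between them may be technical.

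Acetylation of this H3 lysine is known from promoters of transcribed genes, and the same lysine carries methyl groups in heterochromatin, so acetylation and that methyl mark exclude each other on a histone tail. The neighbouring serine is phosphorylated in interphase by the kinase JIL-1 in gene-rich, open chromatin of flies, and on condensed chromosomes in mitosis by Aurora B. In larval salivary glands, JIL-1 and its mark are known from the open interbands of polytene chromosomes, while compact bands carry little of it. The ends of the arms that adjoin the centromere pass into heterochromatin, which is compact, rich in repeats and poor in active genes. Larval nuclei come from many cell types, so a cluster is a sum over tissues. No gene table or genome of release 5 was used here, so positions are given without gene names or sequences.

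The 2047 combined clusters covered 6.18 Mb, which is 22.1% of 3R. Coverage here is the percentage of the assembled length inside clusters, with gaps and repeats left in, so a low percentage is no measure of how little of the mark is there. In the replicate lists 15.2% (replicate 1) and 17.4% (replicate 2) of 3R was covered, a mean of 16.3% ± 1.60 (SD, n = 2). Clusters stood at 73.4 per Mb in the combined list and at 54.5 ± 5.98 per Mb (SD, n = 2) in the replicates. Read totals were not analysed here and the depth behind each list is unknown, so a region called in 1 list and missed in another cannot be set against the number of reads. Intervals given below cover the counting of clusters only.

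The replicates called much of 3R alike. Of the replicate 1 clusters on 3R, 1256 of 1402 overlapped a replicate 2 cluster by at least 1 bp (89.6%, 95% Wilson interval 87.9 to 91.1), against 85.9% of replicate 1 clusters on all sequences. Of the replicate 2 clusters, 1269 of 1638 overlapped a replicate 1 cluster (77.5%, interval 75.4 to 79.4), against 71.4% on all sequences. The replicates shared 3.64 Mb of 3R, which is 85.9% of the bases called in replicate 1 and 74.8% of those called in replicate 2. Scores of 1350 overlapping pairs on 3R correlated with Pearson r 0.83 and Spearman rho 0.79 across pairs, which are not independent replicates. The score is the authors' own value for each cluster. Its scale is not named, and it is used here only to rank and describe clusters within a list, and across overlapping clusters of both lists as this correlation.

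Support went with the score. In replicate 1 every cluster of the upper 2 score quartiles met replicate 2 (350 of 350 and 351 of 351), while 248 of 351 in the lowest quartile did (70.7%). In replicate 2, 409 of 410 clusters of the highest quartile met replicate 1, and 230 of 410 in the lowest did (56.1%). Width went with the score, with a median of 3218 bp in the highest and 1775 bp in the lowest quartile of replicate 1. The 146 replicate 1 clusters that did not meet replicate 2 had a median width of 1687 bp, and the 369 such clusters of replicate 2 had 1611 bp.

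Of the combined clusters on 3R, 1170 were met by both replicates (57.2%, 95% Wilson interval 55.0 to 59.3), against 48.8% over all sequences. Another 439 were met by neither (21.4%, interval 19.7 to 23.3), against 26.3% over all sequences, while 140 met replicate 1 alone and 298 met replicate 2 alone. Clusters met by both were wide and high in score, with medians of 3340 bp and 0.76, against 1295 bp and 0.32 for clusters met by neither. On arms X, 2L, 3L and 2R the share met by both was 49.2%, 52.5%, 49.0% and 56.8%. Clusters of 1 list are not replicates, so this order of arms is given without a test. The combined list was called on the same 2 samples, so its overlap with a replicate list is no independent evidence.

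Most 3R clusters were a few kilobases wide. Median width was 2367 bp in the combined list, 2536 bp in replicate 1 and 2411 bp in replicate 2, a replicate mean of 2473 ± 88.4 bp (SD, n = 2). The middle 50% of combined clusters ran from 1596 to 3641 bp. The narrowest had 1001 bp, against 1301 bp in both replicate lists. The sources used here give no width limit. Clusters of 10 kb or more numbered 34 (1.66% of the combined clusters on 3R, against 1.79% over all sequences), with 9 in replicate 1 and 14 in replicate 2.

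**Figure D1:**
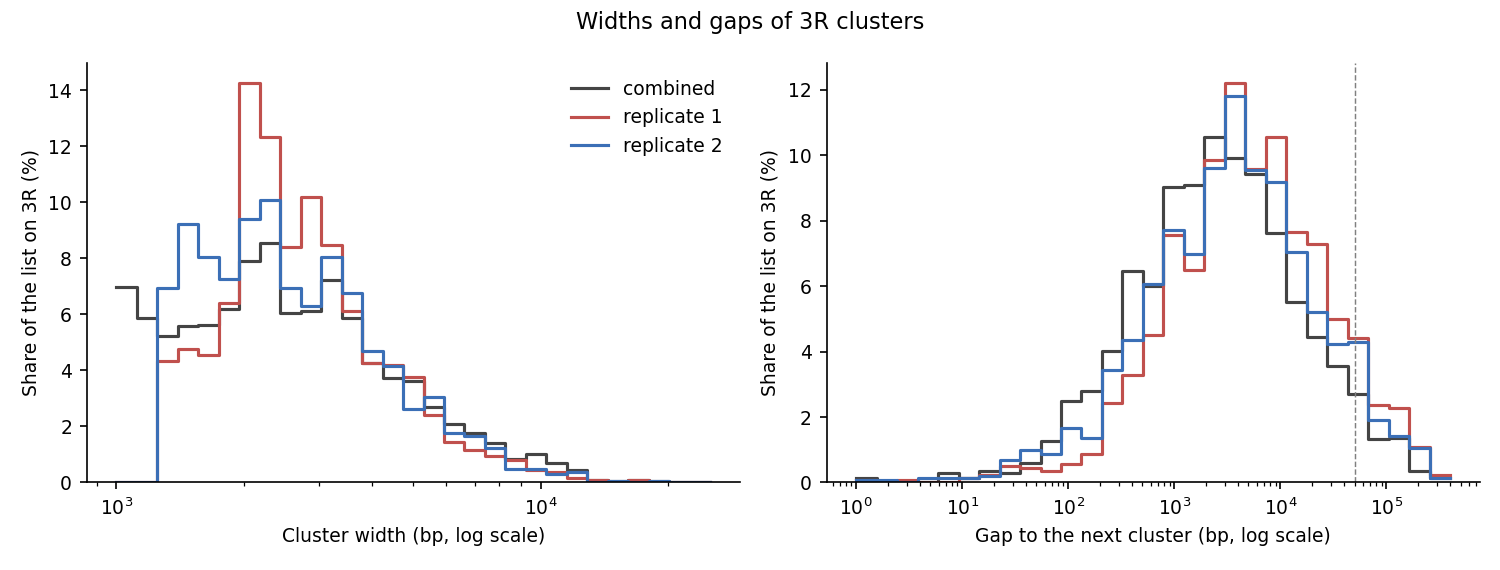
Distributions of cluster width (left) and of the gap from a cluster to the next on 3R (right), as a percentage of each list, on log axes. The dashed line marks 50 kb; gaps had medians of 2577 bp (combined), 4718 bp (replicate 1) and 3746 bp (replicate 2), with a tail past 100 kb in all 3 lists.

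Spacing was far from even. The gap between neighbouring combined clusters had a median of 2577 bp and a mean of 10620 bp. In the combined list 605 of 2045 gaps were under 1 kb (29.6%), while 10% exceeded 26.2 kb. Replicates gave a median gap of 4232 ± 687 bp (SD, n = 2). Grouping combined clusters less than 1 kb apart gave 1441 groups, of which 1037 held a single cluster, 272 held 2 and 132 held 3 or more. The largest group by length and by number held 6 clusters over 38.1 kb, from 7034144 to 7072224, and 96.7% of it was covered. Replicate 1 covered 81.3% and replicate 2 covered 97.9% of the same segment. The longest group of replicate 2 included it, from 7028339 to 7072255 (43.9 kb, 7 clusters), and the longest group of replicate 1 lay within it, from 7034210 to 7053750 (19.5 kb, 4 clusters). By length, the longest group of each list thus lay at this site. By number of clusters, the largest group of replicate 2 lay elsewhere, from 19737787 to 19769442 (31.7 kb, 8 clusters).

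Clusters that stood alone were few. In the combined list 50 clusters (2.44%) had no neighbour within 20 kb on either side, with 81 (5.78%) in replicate 1 and 75 (4.58%) in replicate 2. The share that the density of each list alone would give was not computed. Of the isolated clusters, 74 of 81 in replicate 1 (91.4%) and 52 of 75 in replicate 2 (69.3%) met the other replicate, against 89.6% and 77.5% of all clusters of those lists on 3R. Isolated clusters had a median score of 0.68 in replicate 1 and 0.58 in replicate 2, against 0.73 and 0.63 over all 3R clusters.

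At 100 kb, coverage of 3R varied widely from bin to bin, with most bins between the extremes. Over 279 complete bins, coverage in the combined list had a median of 20.6%, with 10% of bins at or below 1.99% and 10% at or above 44.6%, a ratio of 22.4 between the upper and the lower limit. In 22 bins clusters filled 50% or more of the sequence, and 46 bins were under 5%. Empty bins numbered 16 in the combined list, 29 in replicate 1 and 26 in replicate 2, and 15 bins were empty in all 3 lists. Neighbouring bins were only loosely alike. Coverage of a bin and of the next had a Pearson r of 0.14 in replicate 1 and 0.18 in replicate 2, and at a distance of 3 bins r was -0.03 and -0.002. Bins are neighbours on a single arm, so these are descriptions.

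**Figure D2:**
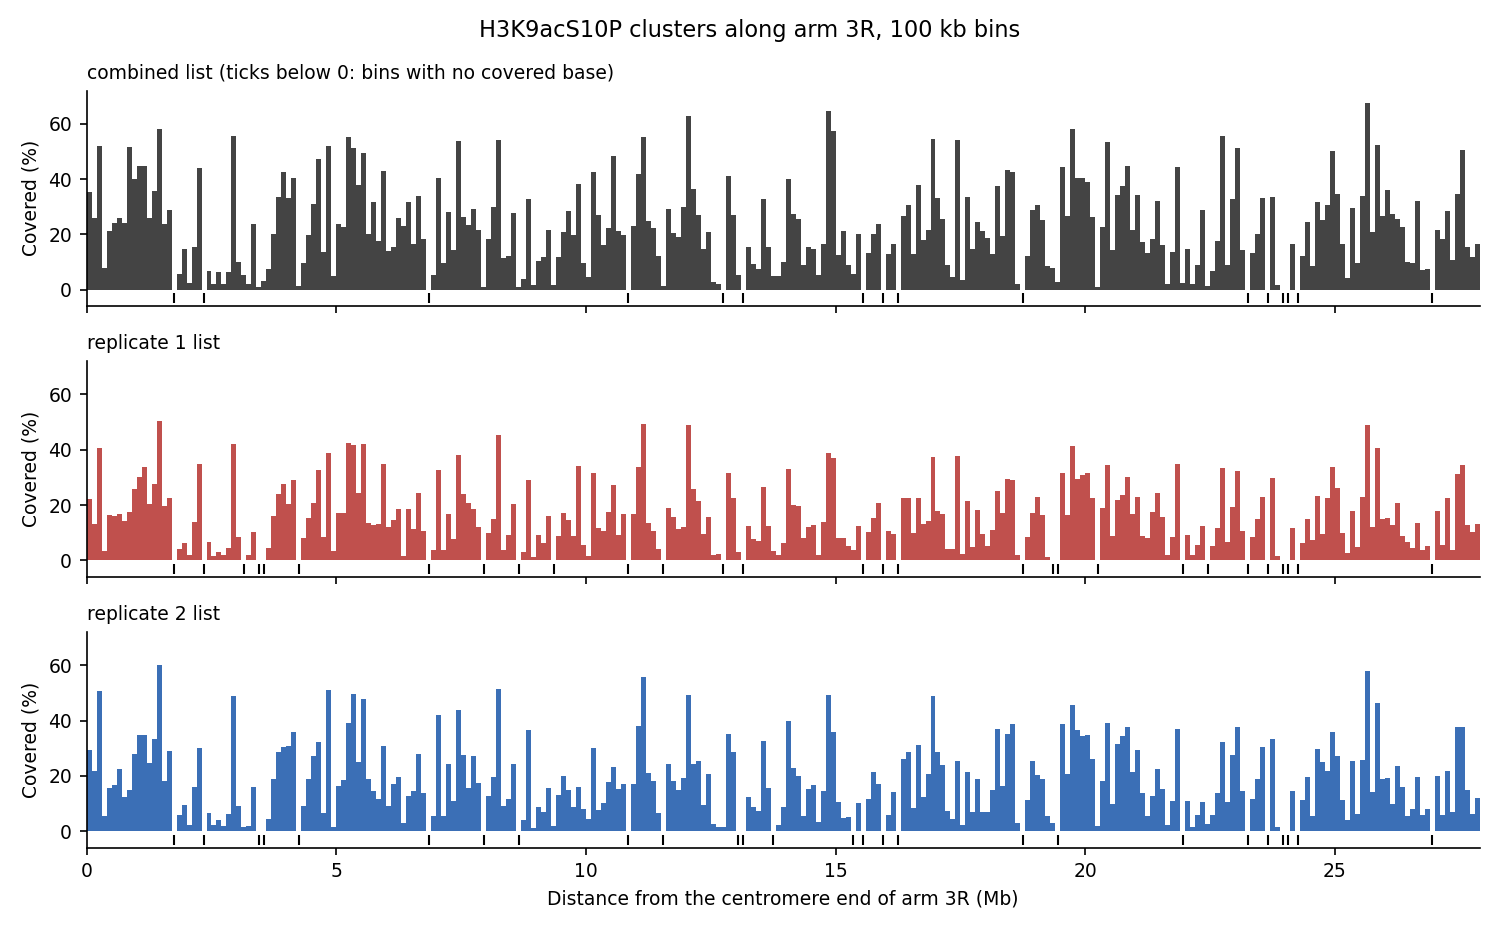
Percentage of each complete 100 kb bin of 3R inside clusters, from the centromere end (left) to the telomere end (right), in the combined list (top), replicate 1 (middle) and replicate 2 (bottom). Black ticks mark the 16, 29 and 26 bins with no covered base; 15 bins are empty in all 3 panels.

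Dense bins chosen in 1 replicate were dense in the other. The 28 most covered bins of replicate 1 had 15.9% to 60.2% coverage in replicate 2, with a median of 44.8% against 15.1% over all bins, and all 28 were above that median. The 28 most covered bins of replicate 2 had a median of 38.4% in replicate 1, against 13.0% over all bins. The 2 selections had 20 bins in common. Density came from more clusters and, to a lesser degree, from wider ones. Bins chosen in replicate 1 held a median of 13 replicate 2 clusters, against 5 in the other bins, with a median width of 2838 bp against 2368 bp. Bins chosen in replicate 2 held 11 replicate 1 clusters against 4, with widths of 2914 bp against 2429 bp. Scores in these bins were higher in replicate 1 (median 0.88 against 0.69) and closer in replicate 2 (0.67 against 0.62).

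The 5 most covered bins of the combined list lay far apart. The highest was 25600001 to 25700000, at 67.3% (49.1% in replicate 1 and 57.9% in replicate 2), with 13 clusters in each list. Next was 14800001 to 14900000, at 64.4% (38.8% and 49.3%). The bin from 12000001 to 12100000 was covered at 62.8% (49.1% in each replicate). In the bin from 1400001 to 1500000 the combined coverage of 58.1% lay between 50.3% in replicate 1 and 60.2% in replicate 2, and this was the most covered bin of both replicates. The fifth was 19700001 to 19800000, at 58.0% (41.5% and 45.8%). Taking as dense the 28 bins at or above 44.6%, 24 stood singly and 2 pairs adjoined, from 5200001 to 5400000 and from 14800001 to 15000000. From each dense domain to the next the median distance was 700 kb, with a range of 200 to 2800 kb. These 28 bins, 10.04% of the 279, held 417 combined clusters (20.4%).

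The 16 bins without combined coverage were likewise scattered. They started at 1700001, 2300001, 6800001, 10800001, 12700001, 13100001, 15500001, 15900001, 16200001, 18700001, 23200001, 23600001, 23900001, 24000001, 24200001 and 26900001. Of these, 15 held no base of either replicate, and the bin from 12700001 held 1 replicate 2 cluster that covered 1.40% of it. The segment from 23200001 to 24300000 held 5 of the 16. The longest run of bins at or below 1.99% was 300 kb, from 23800001 to 24100000, at 0.58% in the combined list and 0.50% in each replicate.

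At 10 kb the contrast was sharper. Of 2790 bins of 10 kb, 1342 held no covered base in the combined list (48.1%), while 538 were covered over 50% or more of their length (19.3%). Replicate 1 left 1604 of these bins empty (57.5%) and replicate 2 left 1515 (54.3%), and they filled 300 and 378 by at least 50%. The longest run of such filled bins in the combined list was 70 kb, from 7440001 to 7510000, with 74.9% covered (replicate 1, 53.7%; replicate 2, 60.9%). In replicate 1 the longest run was 40 kb, from 7030001 to 7070000, at 78.4%, over the site of its longest group of clusters. In replicate 2 it was 70 kb, from 1430001 to 1500000, at 63.7%, inside the most covered 100 kb bin of both replicates.

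The lists also cut covered sequence differently. On 3R 106 combined clusters joined 2 or more replicate 1 clusters and 126 joined 2 or more replicate 2 clusters, with at most 4 and 5 joined. In the converse case 23 replicate 1 clusters and 45 replicate 2 clusters were split over 2 or more combined clusters. All but 3 of the 1402 clusters of replicate 1 overlapped a combined cluster (1399), as did 1572 of 1638 in replicate 2. Of the bases in combined clusters, 16.4% lay in neither replicate.

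**Figure D3:**
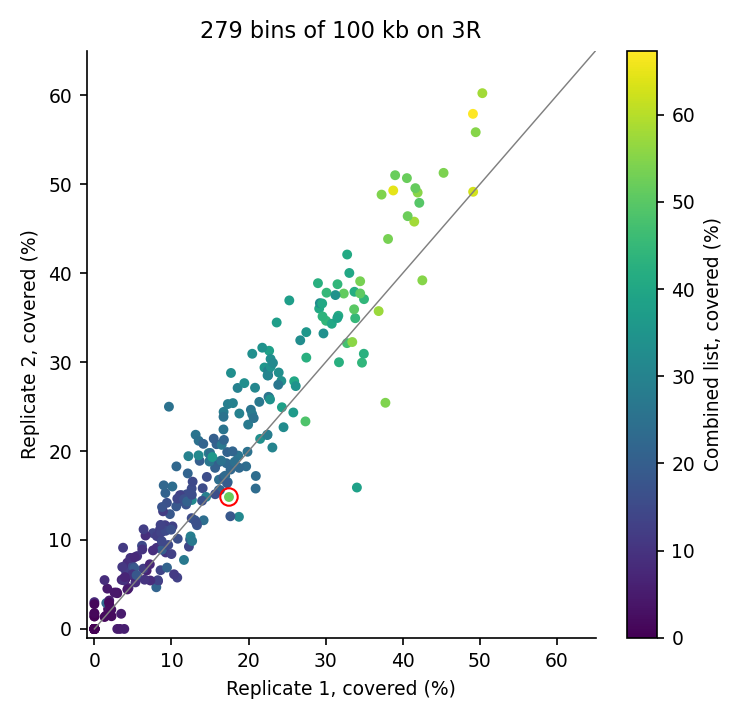
Coverage of the 279 complete 100 kb bins of 3R in replicate 1 (x axis) and replicate 2 (y axis), coloured by coverage in the combined list, with the line of equality. The red circle marks the bin from 800001 to 900000, at 17.5%, 14.8% and 51.7%; 193 bins lie above the line and 63 below it.

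Over bins the replicates correlated with r 0.96 (Pearson) and rho 0.96 (Spearman). Replicate 2 covered more of 193 bins, replicate 1 more of 63, and 23 were equal, all of them at 0. The widest disagreements were few. From 9800001 to 9900000, replicate 1 covered 34.0% and replicate 2 covered 15.9%. From 17400001 to 17500000 the values were 37.7% and 25.4%. In the other direction, replicate 1 covered 39.0% and replicate 2 covered 51.0% of the bin from 4800001 to 4900000. The bin from 24700001 to 24800000 held 4 replicate 1 clusters and 10 replicate 2 clusters.

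Cluster-free stretches took up much of 3R. The combined list left 103 stretches of 50 kb or more, 10.3 Mb in all, which is 36.8% of the arm and 47.2% of its uncovered sequence. Their median length was 86.0 kb, 41 were at least 100 kb long and 4 at least 200 kb. Replicate 1 left 121 such stretches and replicate 2 left 116, a mean of 118.5 ± 3.54 (SD, n = 2). No replicate 1 cluster lay wholly inside any of the 103 combined stretches, and 94 held no whole replicate 2 cluster either. Because the combined list was called on these same replicates, this is no independent support for the stretches. Between the replicates, 70 of the 121 replicate 1 stretches held no whole replicate 2 cluster and 92 of the 116 replicate 2 stretches held no whole replicate 1 cluster. Clusters of replicate 2 covered 1.32% of the replicate 1 stretches, against 17.4% of the whole arm. In the converse case, replicate 1 covered 0.64% of the replicate 2 stretches, against 15.2% of the arm.

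Many edges of the empty stretches lay close together in the replicates. For the 108 replicate 1 stretches that overlapped a replicate 2 stretch, the median distance between matching edges was 249 bp, and 143 of 216 edges lay within 1 kb (66.2%). The longest combined stretch ran from 23814629 to 24148485 (333.9 kb). Replicate 1 was free of clusters from 23814392 to 24150390 (336.0 kb) and replicate 2 from 23814475 to 24148002 (333.5 kb), so its left edge differed by 83 bp and its right edge by 2388 bp between the replicates. The next ran from 18609085 to 18870435 (261.4 kb), where replicate 2 held 1 cluster near the left edge that shortened its stretch to 253.2 kb. Next in length were 23118837 to 23378275 (259.4 kb), 16155569 to 16365571 (210.0 kb), and 6784731 to 6982079 (197.3 kb). At the last of these the replicates differed by 41 bp at the left edge and by 108 bp at the right.

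Coverage beside the empty stretches varied widely. The 20 kb beside a combined stretch were covered at a median of 32.1% over 206 flanks, with a range of 5.01% to 99.0%, against 22.1% of the whole arm. A stretch ends at a cluster by definition, which raises the value of its flank. When the arm was cut into 3 equal lengths, the proximal one held 40 stretches (3.59 Mb), the middle one 36 (3.39 Mb) and the telomeric one 27 (3.28 Mb).

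The other arms had stretches of this kind too. Stretches of 50 kb or more took up 36.8% of 3R in the combined list, against 40.0% of X, 39.3% of 2L, 31.9% of 3L and 24.8% of 2R. In replicate 1 the values were 46.4% on 3R, against 54.1% on X, 50.6% on 2L, 45.8% on 3L and 38.3% on 2R. In replicate 2 they were 43.2% on 3R, against 48.4%, 50.9%, 41.5% and 32.2% in the same order. In all 3 lists 3R lay below X and 2L and above 3L and 2R. The longest stretch of 3R was 333.9 kb in the combined list, 336.0 kb in replicate 1 and 333.5 kb in replicate 2. It was shorter than that of 2L in all 3 lists (478.2, 481.0 and 481.3 kb). The order with X (367.3, 368.1 and 268.6 kb) and 3L (257.0, 403.8 and 403.8 kb) depended on the list. With 2 replicates, an exact sign-flip permutation test of any such difference cannot give a two-sided p below 0.5, so values carry these comparisons.

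The centromere end of the assembled 3R sequence was covered more than that of X, 2L, 3L or 2R in every list. These ends are where the assembled sequences stop, and the sources used here do not give their distance from the centromere. A difference in where they stop thus cannot be told apart from a difference between arms, and was not tested. In the combined list the proximal 1 Mb of 3R was covered at 30.8% with 106 clusters, against 9.52% of X (39 clusters), 9.57% of 2L (43) and 7.47% of 3L (39). On 2R the value was 8.30%. In the replicates the 3R end averaged 20.2% ± 2.20, against 6.24% ± 1.64 on X, 6.60% ± 0.92 on 2L and 3.66% ± 2.42 on 3L (SD, n = 2 each). The mean of the 3 other ends was 5.50% ± 1.66, so the 3R end was higher by 14.7 ± 0.54 percentage points, or 3.78 ± 0.74 times, and above each of them in both replicates. The exact sign-flip permutation test over the 2 replicates gave a two-sided p of 0.5, the smallest it allows. Relative to its own middle, the arm without 1 Mb at each end, the 3R end was covered 1.25 ± 0.013 times as much in the replicates and 1.41 times in the combined list. That ratio was 0.363 ± 0.027 on X, 0.482 ± 0.036 on 2L and 0.237 ± 0.146 on 3L (SD, n = 2 each).

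**Figure D4:**
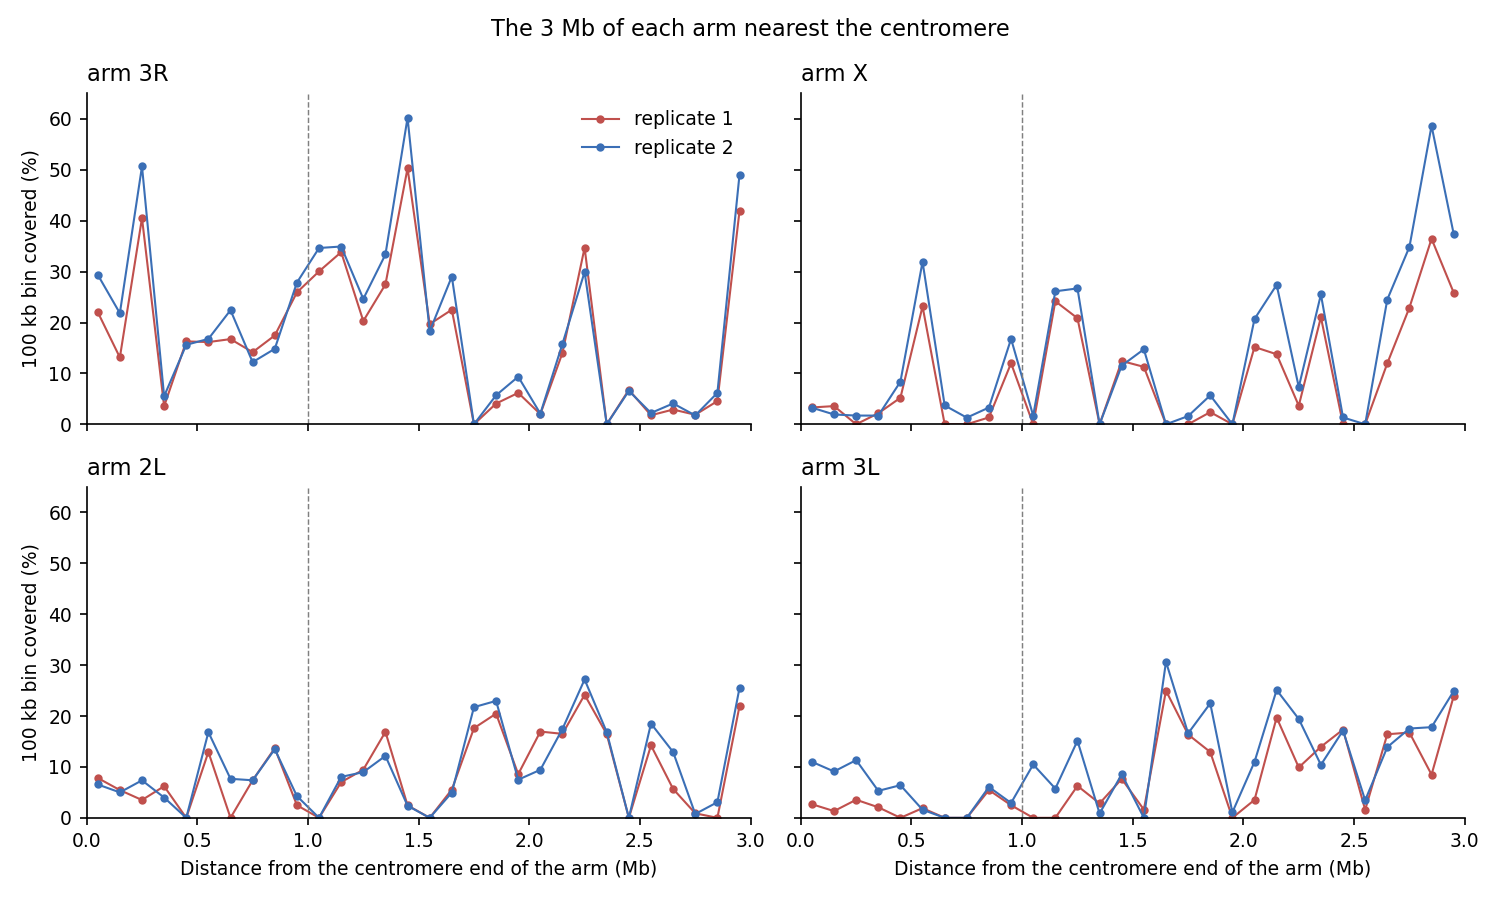
Coverage of 100 kb bins over the 3 Mb nearest the centromere on 3R, X, 2L and 3L, against distance from the assembled end, in replicate 1 (red) and replicate 2 (blue). The dashed line marks 1 Mb; no bin of the first 1.7 Mb of 3R is empty, and its next 10 bins average 7.25% (replicate 1) and 7.58% (replicate 2).

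The density of 3R began at its first bases. The first combined cluster started at position 2 and ended at 3606, with a score of 1.29. Replicate 1 placed it from 6 to 2936 and replicate 2 from 4 to 2659. On the other arms, 5875 bp (X), 41990 bp (2L) and 11443 bp (3L) of assembled sequence preceded the nearest combined cluster. The tenth replicate 1 cluster from the end lay at 134 kb on 3R, against 542 kb on X, 540 kb on 2L and 1212 kb on 3L. For replicate 2 these distances were 68.1 kb on 3R, against 540 kb on X, 363 kb on 2L and 211 kb on 3L. In both replicates the first 100 kb bin of 3R already lay at or above the arm's median bin. The first such bin lay 500 kb inward on X and on 2L, and 1600 kb (replicate 1) or 1200 kb (replicate 2) inward on 3L.

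Sparser sequence followed the covered end of 3R. In all 3 lists the first empty 100 kb bin was the eighteenth from the end, starting at 1700001. The 17 bins before it averaged 23.0% in replicate 1 and 26.6% in replicate 2, and it and the next 9 averaged 7.25% and 7.58%. Combined coverage was 33.5% before and 9.77% after. The boundary was set at an empty bin, which is part of the second span, so the contrast follows in part from that choice. Coverage past it was uneven, with 34.7% and 29.9% in the replicates from 2200001 to 2300000 and 41.9% and 49.1% from 2900001 to 3000000. Over 270 sliding windows of 1 Mb along 3R, the combined list was highest from 700001 to 1700000, at 37.7% (26.2% and 29.0%). It was lowest from 2300001 to 3300000, at 9.63% (7.04% and 8.23%). That was also the lowest window of replicate 1, and the lowest of replicate 2 was from 1700001 to 2700000 (7.58%). The highest windows of the replicates lay elsewhere, from 4600001 to 5600000 in replicate 1 (26.9%) and from 19500001 to 20500000 in replicate 2 (29.6%). Among the 27 complete 1 Mb bins of 3R the proximal one ranked 2 in the combined list and 7 in each replicate. On X it ranked 22 of 22 and on 2R 21 of 21 in all 3 lists. In the combined list, replicate 1 and replicate 2 it ranked 21, 20 and 20 of 23 on 2L. On 3L the ranks were 23, 24 and 23 of 24.

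Coverage of the 3R end was itself uneven. By 100 kb bins from the end, replicate 1 covered 22.1%, 13.1%, 40.5%, 3.54%, 16.3%, 16.2%, 16.7%, 14.2%, 17.5% and 25.9%. Replicate 2 covered 29.4%, 21.8%, 50.7%, 5.52%, 15.6%, 16.8%, 22.4%, 12.2%, 14.8% and 27.8% of the same bins. The third bin was thus the fullest and the fourth the emptiest in both. The longest cluster-free stretch of this end began at 305699 in replicate 1 (160.0 kb), at 312164 in replicate 2 (153.5 kb) and at 377887 in the combined list (87.7 kb). Its right edge lay at 465740, 465664 and 465619. In the proximal 1 Mb of the other arms, cluster-free stretches reached 243 kb (X), 176 kb (2L) and 289 kb (3L) in replicate 1. In replicate 2 they reached 182 kb, 154 kb and 258 kb.

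Whether scores at the 3R end lay above or below those of the arm's middle depended on the window. The median score of clusters in the proximal 1 Mb of 3R was 0.62 in replicate 1 and 0.58 in replicate 2, against 0.73 and 0.63 over the middle of 3R. At the sparse ends of X and 2L the median score was higher than in their middles: 1.18 and 1.01 on X, against 0.88 and 0.73, and 1.15 and 0.91 on 2L, against 0.68 and 0.61. These rest on 21 and 26 clusters on X and on 21 and 28 on 2L, while the 3R end held 74 and 77. On 3L the median was 0.69 and 0.64, against 0.68 and 0.63 in its middle, over 9 and 27 clusters. These orders hold for 1 Mb. Over 500 kb the 3R end scored 0.85 and 0.81, above 0.72 and 0.62 in the arm without 500 kb at each end. Over 2 Mb it scored 0.76 and 0.69, against 0.73 and 0.63. The 500 kb end of X, with 6 clusters in each replicate, was lower in replicate 1 (0.79 against 0.88) and higher in replicate 2 (0.84 against 0.73). Median widths in the proximal 1 Mb of 3R were 2223 bp and 2459 bp, against 2568 bp and 2395 bp in the middle of 3R. Of the 106 combined clusters in the proximal 1 Mb of 3R, 55 were met by both replicates (51.9%, against 57.2% over all of 3R) and 29 by neither (27.4%, against 21.4%). Of these 29, 15 lay in the bin from 800001 to 900000. The lower support did not hold in other windows: 65.9% were met by both and 13.6% by neither over 500 kb, and 58.1% and 22.5% over 2 Mb. In the proximal 1 Mb of X, 2L and 3L, 16 of 39, 19 of 43 and 6 of 39 were met by both.

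The 5 highest-scoring clusters of the 3R end that both replicates met lay above the arm's 75th percentile of score, 0.84. They were chosen by score, so this follows largely from the choice. The first, 474236 to 477146, had a score of 1.62 (1.45 in replicate 1, 1.75 in replicate 2). The next, 261380 to 265014, scored 1.61 (1.57 and 1.76), and 162018 to 164894 scored 1.46 (1.48 and 1.51). The other 2, 45824 to 48644 and 538376 to 540816, scored 1.42 and 1.37. None was among the 10 highest-scoring clusters of the arm.

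Part of the combined coverage of the 3R end was not called in either replicate. From 800001 to 900000 the combined list held 22 clusters and covered 51.7%, while replicate 1 covered 17.5% and replicate 2 covered 14.8%. Of these 22, 15 were met by neither replicate, and their medians were 1323 bp and a score of 0.33. This bin had the largest excess of the combined list over the mean of the replicates on 3R, 35.5 percentage points, against a median excess of 4.79 over the 279 bins. The sources used here do not say how the authors combined the replicates. The scaffold 3RHet, heterochromatic sequence assigned to the same arm, was covered at 2.54% and 8.57% in replicates 1 and 2 and at 15.3% in the combined list, below the proximal 1 Mb of 3R in each list. In the combined list 3RHet was above the proximal 1 Mb of X, 2L, 3L and 2R. The same held in replicate 2, where these ends had 7.40%, 7.26%, 5.37% and 7.35%. In replicate 1 3RHet was below X, 2L and 2R (5.08%, 5.95% and 4.87%) and above 3L (1.95%).

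The 10 highest-scoring 3R clusters met by both replicates lay mostly toward the telomere end, with none between 1428720 and 13622388. The highest ran from 17121442 to 17124696 (3255 bp), at 2.37 in the combined list, 2.35 in replicate 1 and 2.42 in replicate 2. Its nearest neighbour was 19.2 kb away. From 19576730 to 19580338 the score was 2.05 (1.88 in replicate 1 and 2.30 in replicate 2), from 25143218 to 25146220 it was 2.05 (1.95 and 2.27), and from 13622388 to 13624930 it was 2.04 (2.14 and 1.97). The cluster from 26031636 to 26035594 scored 2.03 (2.15 and 2.20), and that from 17189462 to 17192994 scored 2.00 (2.03 and 1.87). Scores of 1.99 and 1.98 belonged to the clusters at 1423958 to 1428720 and 16675414 to 16677998. The last 2, at 25828950 to 25833820 and 25867306 to 25873994, both scored 1.95. All 10 had a single partner in each replicate list. Those from 17121442 and 17189462 shared a 100 kb bin that was covered at 25.6%, so high scores also occurred outside the dense bins.

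The 5 widest clusters met by both replicates had scores of 0.59 to 1.47. The median was 0.76 over all 3R clusters met by both and 0.42 over all combined clusters on 3R. The widest of the 5 thus scored below the median of the clusters they were drawn from. In the replicates, 3 of the 5 were split differently. The widest ran from 19732414 to 19751564 (19.2 kb, score 0.59) and met 2 clusters in replicate 1 and 5 in replicate 2, which covered 73.4% and 75.6% of it. From 12067732 to 12085714 (18.0 kb, 1.00) there were 3 clusters in replicate 1 and 1 in replicate 2. From 14805184 to 14822386 (17.2 kb, 0.82) there were 1 and 3. The cluster from 27423880 to 27438360 (14.5 kb, 1.47) met a single cluster in each replicate, which covered 98.4% and 99.5% of it. The fifth ran from 19871200 to 19885486 (14.3 kb, 1.38) and met 2 in each. The first 3 of these lay in 3 of the 5 most covered 100 kb bins of the arm.

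Clusters called in a single replicate had lower scores on 3R than the list they came from, with a median of 0.46 in replicate 1, against 0.73 over all its clusters, and of 0.49 in replicate 2, against 0.63. The highest-scoring replicate 1 cluster that did not meet replicate 2 ran from 17436694 to 17439223 and scored 0.67, followed by 13029769 to 13032739 (0.64), 15134205 to 15136290 (0.63), 3813932 to 3816115 (0.62) and 26081555 to 26084402 (0.61). All 5 lay below the median of that list. In replicate 2 the 5 highest lay above the replicate 2 median, led by 8333896 to 8337148 (1.18) and followed by 7197837 to 7202557 (0.95), 116248 to 119248 (0.79), 17166424 to 17169359 (0.76) and 23004396 to 23005767 (0.74). The last of these met no combined cluster, and each of the other 9 met 1.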

How the data were processed

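Per the labels' protocols, chromatin of formaldehyde-fixed larval tissue was sonicated and immunoprecipitated. Bowtie 0.12.7 was the aligner, per the submitters' processing notes. The authors deposited 3 lists of enriched regions on FlyBase release 5, per the file headers: 1 per ChIP sample and 1 for both together. The deposited score of each region is the authors' value. The sources used here do not give the caller, its threshold, the score scale, the way replicates were combined or the treatment of repeats.

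Depleted-type regions were left out (1 combined, 1 from replicate 2). Overlap was at least 1 bp, checked with bedtools 2.31.1, and the coverage, gap and overlap steps were tested on simulated lists. The centromere end has low coordinates on 3R and 2R and high ones on X, 2L and 3L. Clusters were assigned to windows by midpoint. Shares have 95% Wilson intervals. Bins were complete 100 kb bins.

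Regions named are the 10 highest-scoring and 5 widest combined clusters met by both replicates, the 5 highest-scoring of them in the proximal 1 Mb, the 5 longest free stretches, the 5 most and (tied at 0) least covered bins, and, per replicate, the 5 unmet clusters of highest score. Others were singled out after their values were seen. The arm, lists and tests were chosen with earlier results of these data known. Python 3.11.15, numpy 2.4.6, pandas 2.3.3, scipy 1.17.1 and matplotlib 3.10.9 were used.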

Additional observations from a re-analysis of the deposited data

How the results depend on the processing

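The alternatives changed sizes but no direction. For coverage and cluster density, the 3R end exceeded its arm's middle and the mean of the other ends under each setting run. Median scores at that end were not among these results, and their order against the middle did change with the window. Leaving out a replicate put the other replicate's list in place of the combined one. No paired analysis was possible because the inputs, the group that shares replicate numbers with the ChIP samples, gave no values here, so ChIP was not set against input.

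The higher-scoring 50% of the combined list gave 14.4% coverage of 3R, a median width of 3491 bp, a median gap of 7233 bp, 16.7% coverage of the proximal 1 Mb, 1.16 times the arm's middle, 2.74 times the other ends, and 98.4% of clusters met by both. Clusters met by both gave 16.9%, 3340 bp, 5549 bp, 21.7% and 1.30 times the middle, and 5.01 times the other ends. With a replicate left out, 3R coverage was 15.2% to 17.4%, median width 2411 to 2536 bp, median gap 3746 to 4718 bp, free stretches of 50 kb 116 to 121, the proximal 1 Mb 18.6% to 21.7%, its ratio to the middle 1.24 to 1.25 and to the other ends 3.25 to 4.30. The share of clusters met was 64.0% to 71.7% with a single replicate asked for. It was 49.4% at a reciprocal overlap of 50%, and 66.9% for clusters no narrower than the shortest of the replicates.

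Merging clusters within 1 kb gave a median width of 3175 bp and gap of 4873 bp. Stretches of 30 kb or more numbered 184 and of 100 kb or more 41. The ratio of the 90th to the 10th percentile of bin coverage was 4.37 with 250 kb bins and 25.9 without replicate 1; it had no value where the lower limit was 0 (without replicate 2, 50 kb bins, and both subsets by score or support). A 500 kb window gave 28.4% and 1.29 times the middle, and a 2 Mb window 1.36 times; against the other ends these windows gave 3.61 and 2.78 times. In clusters per Mb the end stood at 106, a different unit, which is 1.46 times the middle and 2.63 times the other ends. In each case the cause was not tested.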

Other observations

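The 2 highest scores of the combined list on 3R belonged to short clusters that neither replicate met. Of 84 combined clusters on 3R with a score of 1.5 or more, 80 were met by both replicates and 4 by neither. Of these 4, 3 lay within 13.5 kb of each other: from 3520862 to 3521946 (score 2.66), from 3529080 to 3530084 (3.17) and from 3533320 to 3534320 (2.27), each between 1001 and 1085 bp wide. The other ran from 11426914 to 11427918 and scored 1.69. Their scores recurred exactly elsewhere in the combined list, with 6, 9, 10 and 3 clusters at the 4 values. Each of the 10 highest-scoring clusters met by both replicates had a score found nowhere else in that list.

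The group of 3 lay in a stretch that both replicates left free, from 3367291 to 3618986 in replicate 1 (251.7 kb) and from 3367676 to 3619170 in replicate 2 (251.5 kb). The combined list placed 5 clusters there, of 1001 to 1575 bp. A second stretch free in both replicates, from 8546350 to 8785834 in replicate 1 (239.5 kb), was divided in the combined list by 1 cluster of 1087 bp with a score of 0.28. Both stretches are therefore missing from the longest empty stretches of the combined list. All start and end positions of combined clusters on 3R were even. In the replicates both positions were even for 27.5% (replicate 1) and 27.1% (replicate 2) of 3R clusters.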
